A study of Danio rerio with 121 samples.

Results

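Genes of the pronephros, the embryonic kidney of the zebrafish, were followed by RNA-Seq of whole embryos over 9 stages. The 9 genes were taken by symbol from the deposited table of 24801 gene symbols, and all 9 were found: the transcription factor genes *pax2a*, *pax8*, and *wt1a*, the podocyte gene *nphs1*, and the tubule genes *cdh17*, *slc20a1a*, *slc12a1*, *slc12a3*, and *cubn*. The study followed whole-embryo expression over early development of RIKEN wild type (RW) embryos, with no treatment or mutation. The libraries came from the 6, 10, 15, and 20 somite stages (ss) and from 24, 32, 48, 72, and 96 h postfertilization (hpf). By their titles and descriptions they are of 3 kinds. There were 52 numbered libraries (8 each at 6 ss, 20 ss, 24, 48, 72, and 96 hpf, and 4 at 15 ss). A further 29 are titled with an S (8 each at 6 ss, 10 ss, and 96 hpf, and 5 at 15 ss). The other 40 carry the name DrRyu in their descriptions, not in their titles (8 each at the 20 somite stage and at 24, 32, 48, and 72 hpf). The meaning of S was not given. A deposited sample table dates the numbered and S libraries to 2020 and the DrRyu libraries to 2021. The sample labels speak of single embryos, whereas the study's methods speak of pools, so how many embryos stand behind a library was not settled.

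The pronephros arises from the intermediate mesoderm under transcription factors that include *pax2a*, *pax8*, and *wt1a*. Its filter, the glomerulus, is lined by podocytes whose foot processes are joined by the slit diaphragm, and its paired tubules take salts, phosphate, and proteins back from the filtrate, each segment with its own set of transporters. The proximal segments carry phosphate transporters and the endocytic receptor cubilin, and the distal segments carry the chloride cotransporters. In whole-embryo RNA, fewer cells of a type and less RNA per cell cannot be told apart.

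The library totals ran from 866854 to 21646478 counts, with a median of 3129763. Levels are given as CPM, the usual scaling of a count to its library total, adjusted by the TMM factors of edgeR, a normalization that lines up most genes between libraries, and spreads are SDs over libraries. In a library of the median total, 0 counts allow a level of up to 0.959 CPM (3 counts of the total), which covers counting error only. Differences between stages were tested within a kind of library in 1 edgeR quasi-likelihood fit of all libraries, with Benjamini-Hochberg adjustment over the 21638 genes tested. A gene was called at an adjusted p under 0.05, and rose and fell are used for called differences. The libraries are described as biological replicates, but nothing states that those of a group came from separate clutches, so the p-values measure the spread between these libraries. Steps held by both the numbered and the DrRyu libraries are given as the mean of both. The steps up to 15 ss are from the S libraries, those to or from 32 hpf from the DrRyu libraries, and all others from the numbered libraries. The deposited sample table lists a used number with no description. It was 50 for the numbered libraries except 10 at 20 ss and 5 at 96 hpf. In this kind the steps into and out of 20 ss and all steps to 96 hpf cannot be told apart from it. For the S libraries it was 25 at 6 ss, 20 at 10 ss, 15 at 15 ss, and 1 at 96 hpf. No step between S libraries can be told apart from it, nor can S over numbered at any shared stage.

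The members differed widely in how well they were measured. *pax2a* (12709 counts in all) and *nphs1* (5307) had counts in every library, *cdh17* (7871) in 115, *slc12a3* (1959) in 91, and *slc20a1a* (2387) in 88. *cubn* had 355 counts in 59 libraries. The remaining members were close to undetected: *slc12a1* had 65 counts in 11 libraries, *wt1a* 47 counts in 12 libraries, and *pax8* 4 counts in 2 libraries, so that *pax8* was not tested. These are read counts, and how fully the reads of each gene were captured was not tested, so they do not rank the genes by molecules.

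**Figure D1:**
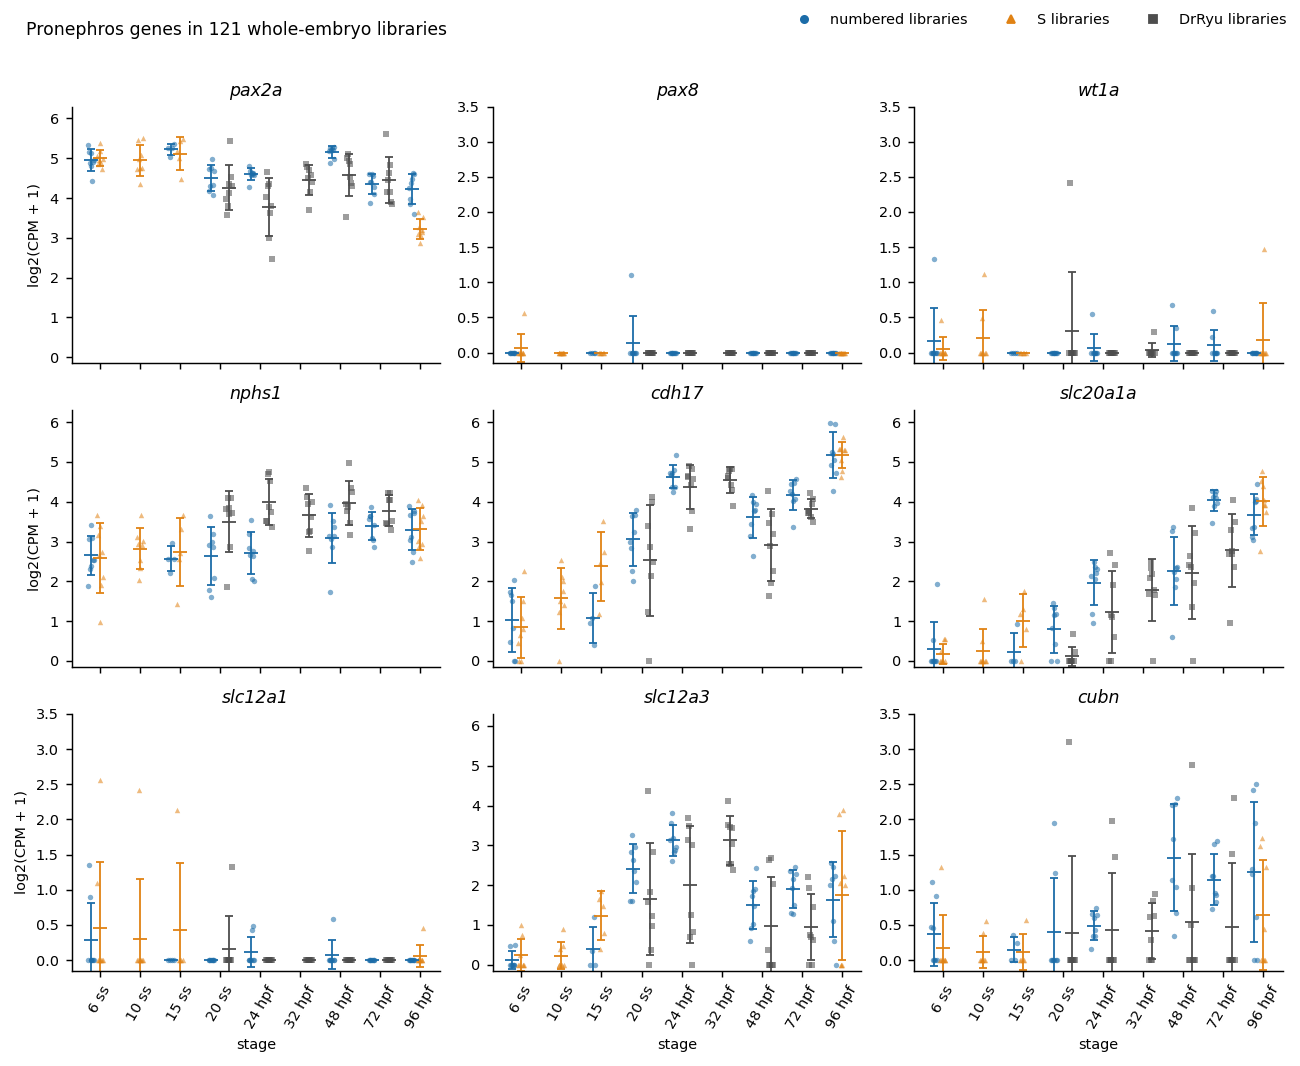
Level of each of the 9 genes as log2(CPM + 1) (vertical axes, longer for the 5 genes with most counts) against stage (horizontal axis); points are libraries, colored by kind, and bars are the mean and SD of a group. *pax2a* and *nphs1* had counts in every library, *cdh17*, *slc20a1a*, and *slc12a3* sat near 0 at 6 ss and higher later, and *pax8*, *wt1a*, and *slc12a1* stayed at 0 in most libraries.

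*pax2a*, which encodes a paired-box transcription factor of the intermediate mesoderm, the midbrain-hindbrain boundary, and the inner ear, was present from the earliest stage and moved within a 2.01-fold range of stage means in the numbered libraries. Those means were 30.4 ± 5.76 CPM at 6 ss, 36.6 ± 3.54 CPM at 15 ss (n = 4), 22.2 ± 5.16 CPM at 20 ss, 23.4 ± 2.33 CPM at 24 hpf, 34.7 ± 3.39 CPM at 48 hpf, 19.7 ± 3.46 CPM at 72 hpf, and 18.2 ± 4.66 CPM at 96 hpf (SD, n = 8 each unless given). The highest means were thus those of 15 ss and 48 hpf. The log2 difference of 20 over 15 ss was -0.72 and was not called (edgeR adjusted p = 0.0827). All 8 numbered libraries of 20 ss (15.9 to 30.3 CPM) nevertheless lay below the 4 of 15 ss (31.8 to 40.2 CPM). The 5 S libraries of 15 ss held 21.3 to 43.5 CPM and overlapped with them. At 48 hpf the numbered libraries held 28.4, 35.6, and 38.0 CPM (lowest, median, and highest), against 18.5, 23.6, and 26.8 CPM at 24 hpf, and the groups did not overlap. In the DrRyu libraries these values were 10.4, 24.9, and 33.7 CPM at 48 hpf, against 4.57, 14.1, and 24.4 CPM at 24 hpf, with overlap. Over both kinds *pax2a* rose by 0.67 on the log2 scale between 24 and 48 hpf (SE 0.15, edgeR adjusted p = 7.55e-05), which is 1.59-fold with a 95% interval of 1.30 to 1.95.

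After 48 hpf *pax2a* fell. The 72 hpf numbered libraries held 13.8, 20.0, and 23.4 CPM (lowest, median, and highest), below all 48 hpf numbered libraries. The DrRyu libraries held 13.4, 18.8, and 47.5 CPM at 72 hpf and overlapped with 48 hpf. The log2 change from 48 to 72 hpf was -0.47 over both kinds (SE 0.15, adjusted p = 0.0128, edgeR), made of -0.81 in the numbered libraries (adjusted p = 0.00295) and -0.12 in the DrRyu libraries (adjusted p = 0.779). The difference between the kinds was not called (adjusted p = 0.215, edgeR interaction), and with library totals in place of TMM the change over both kinds missed the threshold (-0.31, adjusted p = 0.132). The rise of *pax2a* between 24 and 32 hpf in the DrRyu libraries was called in the fit of all libraries (log2 0.61, SE 0.21, adjusted p = 0.0382) but under 4 of 10 alternatives only.

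*wt1a*, a regulator of podocyte development, and *pax8*, a partner of *pax2a* in kidney specification, could not be followed. *pax8* had 3 counts in 1 numbered library at 20 ss and 1 count in 1 S library at 6 ss. *wt1a* was at 0 in 109 libraries, and its largest value was 13 counts (4.31 CPM) in DrRyu library 2 at 20 ss, with 1 to 5 counts in each of the other 11 libraries that had any. No fold change between stages is given for these genes, and none for *slc12a1*, the bumetanide-sensitive sodium-potassium-chloride cotransporter of the distal tubule. Its 65 counts lay in 11 libraries with at most 14 in 1 of them. The fit called *slc12a1* in 96 hpf over 6 ss (adjusted p = 0.0476), on 0 counts at 96 hpf, against 6 counts in 2 libraries at 6 ss.

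*nphs1*, which encodes nephrin, the adhesion protein of the slit diaphragm, showed no called difference in any of the stage contrasts of the main edgeR fit. Its means in the numbered libraries were 5.62 ± 2.31 CPM at 6 ss, 5.05 ± 1.28 CPM at 15 ss (n = 4), 5.89 ± 3.19 CPM at 20 ss, 5.94 ± 2.52 CPM at 24 hpf, 8.17 ± 3.38 CPM at 48 hpf, 9.81 ± 2.58 CPM at 72 hpf, and 9.43 ± 3.52 CPM at 96 hpf (SD, n = 8 each unless given). Every step between successive stages overlapped. Over all 7 stages of the numbered libraries the edgeR test of any difference reached an adjusted p of 0.0389, in a setting where 64.5% of all genes were called, and over the 5 DrRyu stages it did not (adjusted p = 0.491), where 62.3% were called. Of the 8 members tested, 6 were called in each of these tests, among them *slc12a1* in both and *wt1a* in the DrRyu libraries on the few counts given above. The log2 difference of 96 hpf over 6 ss was 0.75 (95% interval 0.08 to 1.42, adjusted p = 0.0542). The DrRyu libraries held more *nphs1* at each shared stage, with means of 11.4, 16.2, 15.8, and 13.2 CPM at 20 ss, 24, 48, and 72 hpf. In the numbered libraries the means at those stages were 5.89, 5.94, 8.17, and 9.81 CPM. The kinds also differ in year, this difference between kinds was not tested, and year and kind cannot be told apart.

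*nphs1* had counts in all 8 numbered libraries of 6 ss. In the RefSeq gene table of another assembly, *nphs1* overlaps *kirrel3l*, a gene of the Kirrel family of adhesion proteins. The *kirrel3l* row held 15964 counts, at group means between 16.4 and 41.4 CPM. The authors counted on transcripts with an unstranded setting, so reads of the overlap could have gone to either row, and the values of *nphs1* are uncertain to that degree. The part of shared reads in its course was not tested.

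*cdh17*, a cadherin of the tubule and duct epithelium, was the tubule gene with the clearest course, with a rise up to 24 hpf, a drop at 48 hpf, and a second rise to 96 hpf. Its means in the numbered libraries were 1.32 ± 1.18 CPM at 6 ss, 1.27 ± 1.02 CPM at 15 ss (n = 4), 8.07 ± 3.73 CPM at 20 ss, 24.3 ± 5.47 CPM at 24 hpf, 11.9 ± 3.95 CPM at 48 hpf, 17.6 ± 4.22 CPM at 72 hpf, and 37.7 ± 15.8 CPM at 96 hpf (SD, n = 8 each unless given). The DrRyu means were 7.05 ± 6.07 CPM at 20 ss, 21.1 ± 6.93 CPM at 24 hpf, 22.8 ± 4.77 CPM at 32 hpf, 7.95 ± 5.43 CPM at 48 hpf, and 13.3 ± 2.44 CPM at 72 hpf (SD, n = 8 each). Both kinds thus had their dip at 48 hpf.

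The first rise separated the numbered libraries. At 20 ss the numbered libraries held 3.03, 7.72, and 13.0 CPM of *cdh17* (lowest, median, and highest), all above the 4 numbered libraries of 15 ss, the highest of which held 2.72 CPM. This step was 2.49 on the log2 scale (SE 0.55, edgeR adjusted p = 0.000879). The 5 S libraries of 15 ss held more, with 1.27, 4.55, and 10.5 CPM, and overlapped with 20 ss. Set against them, a comparison chosen after seeing the data in which kind and stage change together, the difference was 0.64 and was not called (edgeR adjusted p = 0.758), and against the mean of both kinds of 15 ss it was 1.57 (adjusted p = 0.00666). At 24 hpf the numbered libraries held 18.0, 24.9, and 35.2 CPM, all above those of 20 ss, and the DrRyu libraries held 8.97, 23.2, and 28.9 CPM, against 0, 5.44, and 16.5 CPM at 20 ss, with overlap. Over both kinds the step from 20 ss to 24 hpf was 1.55 (SE 0.25, adjusted p = 7.29e-08), and it was called in each kind in the same fit (3.05-fold in the numbered and 2.83-fold in the DrRyu libraries). From 6 ss to 24 hpf *cdh17* rose 18.3-fold (95% interval 10.1 to 33.2, adjusted p = 3.1e-15).

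At 48 hpf *cdh17* was lower. The numbered libraries held 5.24, 12.8, and 17.0 CPM (lowest, median, and highest) at 48 hpf, below all 8 libraries of 24 hpf, which started at 18.0 CPM. The DrRyu libraries held 2.08, 7.26, and 18.3 CPM at 48 hpf, against 14.0, 23.7, and 27.5 CPM at 32 hpf, and 7 of the 8 were below all of 32 hpf. The level at 48 hpf was 0.432 of that at 24 hpf (95% interval 0.311 to 0.601, adjusted p = 1.44e-05, edgeR) and 0.351 of that at 32 hpf (95% interval 0.219 to 0.560, adjusted p = 0.000475). The 48 over 24 hpf change was called in each kind alone in the same fit, with log2 values of -1.02 and -1.40 in the numbered and DrRyu libraries.

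The second rise of *cdh17* was 0.65 on the log2 scale between 48 and 72 hpf (SE 0.24, edgeR adjusted p = 0.0443), a call that was lost in either kind alone. It was 1.11 between 72 and 96 hpf (SE 0.33, adjusted p = 0.0282), where the numbered libraries held 18.3, 34.2, and 62.0 CPM at 96 hpf (lowest, median, and highest), against 9.36, 17.8, and 22.6 CPM at 72 hpf. Of the 8 libraries at 96 hpf, 7 were above all of 72 hpf. The S libraries of 96 hpf averaged 35.7 ± 7.88 CPM (SD, n = 8), close to the numbered ones.

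*slc12a3*, the thiazide-sensitive sodium-chloride cotransporter of the distal tubule, was likewise higher at 20 ss than at 15 ss in the numbered libraries and was lower again at 48 hpf. Its numbered means were 0.0990 ± 0.183 CPM at 6 ss, 0.391 ± 0.610 CPM at 15 ss (n = 4), 4.75 ± 2.33 CPM at 20 ss, 8.01 ± 2.64 CPM at 24 hpf, 2.04 ± 1.25 CPM at 48 hpf, 2.93 ± 1.23 CPM at 72 hpf, and 2.64 ± 1.84 CPM at 96 hpf (SD, n = 8 each unless given). The DrRyu means were 4.10 ± 6.53 CPM at 20 ss, 4.98 ± 4.84 CPM at 24 hpf, 8.43 ± 4.09 CPM at 32 hpf, 1.75 ± 2.43 CPM at 48 hpf, and 1.24 ± 1.34 CPM at 72 hpf. The highest mean was therefore at 24 hpf in the numbered libraries and at 32 hpf in the DrRyu libraries. The DrRyu spread was wide: of the 132 counts at 20 ss, 59 were in library 2.

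All 8 numbered libraries of 20 ss, with 2.04, 4.62, and 8.59 CPM of *slc12a3* (lowest, median, and highest), lay above the 4 numbered libraries of 15 ss, whose highest was 1.28 CPM. The step was 3.64 on the log2 scale (SE 1.12, edgeR adjusted p = 0.0401). The 5 S libraries of 15 ss held 0.325, 1.80, and 2.59 CPM and overlapped with 20 ss, and against them the difference was 1.66 and was not called (adjusted p = 0.603, edgeR), while against the mean of both kinds it was 2.65 (adjusted p = 0.0296). In the numbered libraries the call was lost when library 1, 2, or 4 of 15 ss was left out (adjusted p = 0.159, 0.127, and 0.174) and kept without library 3. At 24 hpf the numbered libraries held 36 to 95 counts each and 470 in all, against 2 counts in all at 6 ss. Their totals give a ratio of 66.0, with a 95% counting interval of 18.2 to 547 (Clopper-Pearson), and the difference was called (adjusted p = 4.19e-07).

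The fall of *slc12a3* came before 48 hpf. The numbered libraries held 0.517, 2.04, and 4.35 CPM at 48 hpf (lowest, median, and highest), against 5.07, 7.30, and 12.9 CPM at 24 hpf, without overlap. The DrRyu libraries held 0, 0.145, and 5.40 CPM at 48 hpf, against 4.22, 8.48, and 16.3 CPM at 32 hpf, and 6 of the 8 were below all of 32 hpf. The log2 change was -1.71 for 48 over 24 hpf (SE 0.50, edgeR adjusted p = 0.00402) and -2.27 for 48 over 32 hpf (SE 0.72, adjusted p = 0.0159). With the DrRyu libraries fitted alone both missed the threshold (adjusted p = 0.328 and 0.141). At 96 hpf all 8 numbered libraries were still below those of 24 hpf, and the fitted difference of -1.56 was not called (95% interval -2.95 to -0.17, adjusted p = 0.0696). The S libraries of 96 hpf varied more, at 0, 3.07, and 13.9 CPM, and overlapped with the numbered libraries of 24 hpf.

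*slc20a1a*, a sodium-phosphate cotransporter gene of the proximal tubule, had its highest means later, at 72 and 96 hpf. Its numbered means were 0.408 ± 0.990 CPM at 6 ss, 0.227 ± 0.453 CPM at 15 ss (n = 4), 0.859 ± 0.686 CPM at 20 ss, 3.14 ± 1.33 CPM at 24 hpf, 4.51 ± 2.98 CPM at 48 hpf, 15.7 ± 2.77 CPM at 72 hpf, and 12.5 ± 4.82 CPM at 96 hpf (SD, n = 8 each unless given). The DrRyu means were 0.0971 ± 0.215 CPM at 20 ss, 1.93 ± 2.06 CPM at 24 hpf, 2.78 ± 1.43 CPM at 32 hpf, 4.95 ± 4.17 CPM at 48 hpf, and 7.02 ± 4.39 CPM at 72 hpf. The order of the stages was the same in both kinds from 20 ss to 72 hpf, but neighbors in that order overlapped except 48 and 72 hpf in the numbered libraries.

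The step of *slc20a1a* from 20 ss to 24 hpf was called. The numbered libraries held 7 to 36 counts each at 24 hpf, against 0 to 6 counts at 20 ss, and the DrRyu libraries held 64 counts in all at 24 hpf, against 6 at 20 ss. The log2 change over both kinds was 2.71 (SE 0.50, edgeR adjusted p = 3.03e-06). From 24 to 48 hpf, where *cdh17* and *slc12a3* fell, the difference of *slc20a1a* was 0.89 and was not called (95% interval 0.11 to 1.67, adjusted p = 0.0678).

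At 72 hpf the numbered libraries held 10.1, 16.4, and 18.4 CPM of *slc20a1a* (lowest, median, and highest), against 0.517, 3.87, and 9.25 CPM at 48 hpf, without overlap. The DrRyu libraries overlapped, with 0.927, 5.62, and 15.4 CPM at 72 hpf, against 0, 4.25, and 13.3 CPM at 48 hpf. The log2 change over both kinds was 1.16 (SE 0.39, edgeR adjusted p = 0.0209), of which the numbered libraries gave 1.82 and the DrRyu libraries 0.51, and the difference between kinds was not called (adjusted p = 0.467). At 96 hpf all 8 numbered libraries, at 7.26, 12.1, and 20.7 CPM, lay above those of 24 hpf, at 0.953, 3.54, and 4.57 CPM. That difference was 3.92-fold (95% interval 1.84 to 8.35, adjusted p = 0.00211).

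*cubn*, which encodes the endocytic receptor cubilin of the proximal tubule, had no called difference in any of the stage contrasts of the main edgeR fit, on 355 counts in all. Its numbered libraries held 24 counts in all at 24 hpf, 68 counts at 48 hpf, 60 counts at 72 hpf, and 37 counts at 96 hpf, and its means were 0.417, 2.08, 1.28, and 1.90 CPM at these stages, with SDs between 0.193 and 1.86 (n = 8 each). At 48 hpf, 6 of the 8 numbered libraries were above all of 24 hpf, and the fitted difference over both kinds was 1.36 (95% interval -0.22 to 2.94, edgeR adjusted p = 0.190). In the DrRyu libraries *cubn* had counts in 1 to 5 libraries of 8 per stage, and all 23 counts at 20 ss were in 1 library. The gene of its membrane partner amnionless, *amn*, was at 0 in the 8 numbered libraries of 6 ss and held 53 counts in those of 24 hpf and 128 counts in those of 96 hpf, where it averaged 6.65 ± 2.82 CPM. Both differences of *amn* were called (24 hpf over 6 ss, adjusted p = 0.00229, and 96 over 24 hpf).

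**Figure D2:**
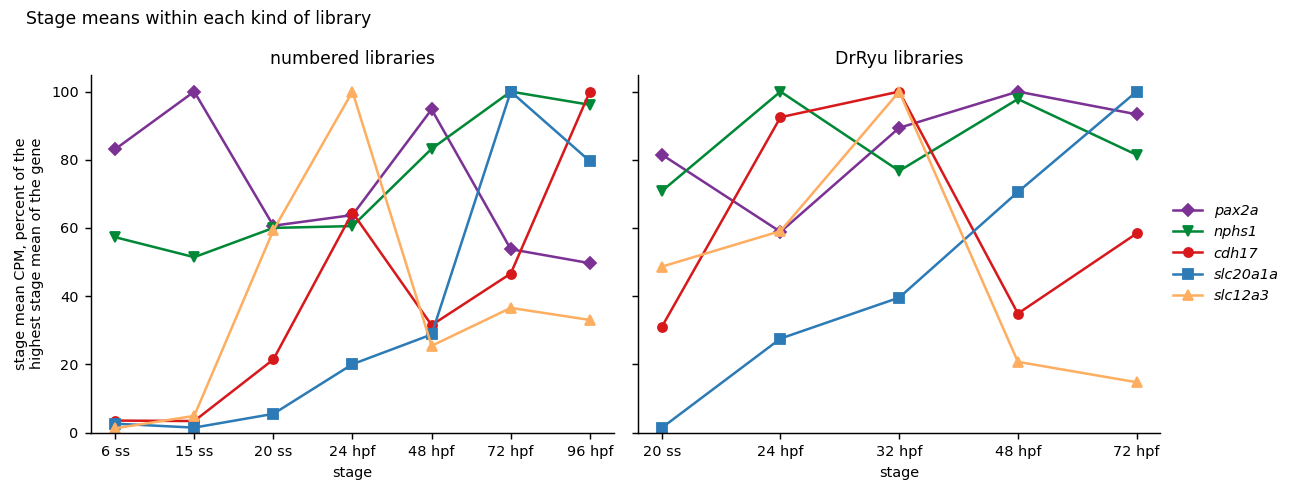
Mean CPM of each stage (horizontal axis) as a percent of the highest stage mean of the same gene (vertical axis), for the 5 genes with most counts, in the numbered libraries (left, 7 stages) and the DrRyu libraries (right, 5 stages); each point is a mean over 8 libraries, or 4 at 15 ss. In the numbered libraries *slc12a3* stood at 25.4% of its highest mean at 48 hpf and *cdh17* at 31.5%, while *slc20a1a* reached its highest mean at 72 hpf.

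The courses of the members were compared within libraries, through the log2 ratio of (CPM + 1) of 2 genes. A factor that acts on both genes alike cancels in this ratio only where both levels are well above the 1 CPM added. Where a level is near or below 1 CPM, such a factor can move the ratio. Exact two-sided permutation tests of 8 against 8 libraries were run on 28 combinations of pair and comparison, and the smallest p they can give is 0.000155. Of these 28, 21 passed an adjusted p under 0.05, most of them in pairs with *pax8*, *wt1a*, *slc12a1*, or *cubn*. Such pairs mostly reflect the other gene of the pair, as those genes were at or near 0 in many libraries, and are not described.

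The ratio of *cdh17* to *pax2a*, a tubule gene over a regulator, moved in both directions. It averaged 0.03 ± 0.35 at 24 hpf, against -3.92 ± 0.77 at 6 ss, a difference of 3.96 with all 8 later libraries above all earlier ones (exact permutation, adjusted p = 0.000725, n = 8 each). At 48 hpf it was lower than at 24 hpf by -1.57 in the numbered and by -2.26 in the DrRyu libraries (exact permutation, adjusted p = 0.000725 and 0.0058). *cdh17* and *pax2a* thus moved in opposite directions over this step. At 96 hpf the ratio was higher than at 24 hpf by 0.92 (exact permutation, adjusted p = 0.0182), with 5 of 8 libraries above all of 24 hpf.

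Among the tubule genes, *slc20a1a* and *cdh17* did not keep a fixed ratio. In the numbered libraries their ratio differed by -1.95 for 24 hpf over 6 ss (exact permutation, adjusted p = 0.000725). At 6 ss *slc20a1a* averaged 0.408 CPM, below the 1 CPM added, and this call depended on the amount added. At 48 hpf the ratio of *slc20a1a* to *cdh17* averaged -1.36 ± 0.74 in the numbered libraries, against -2.67 ± 0.53 at 24 hpf, and the difference was 1.31 (exact permutation, adjusted p = 0.00242, n = 8 each). In the DrRyu libraries the difference was 2.45 (exact permutation, adjusted p = 0.00986). In both kinds 7 of 8 libraries of 48 hpf were above all of 24 hpf. At 96 hpf this ratio was 1.17 above that of 24 hpf (exact permutation, adjusted p = 0.00901).

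A further pair, *slc12a3* over *cdh17*, was added after the levels had been seen. From 6 ss to 24 hpf its difference of -0.60 was not called (exact permutation, adjusted p = 0.166 over 36 tests). At 6 ss *slc12a3* averaged 0.0990 CPM, far below the 1 CPM added, so the sign of this difference is not that of the levels. The fitted log2 changes over this span were 5.97 for *slc12a3* and 4.19 for *cdh17*. At 48 hpf the ratio was lower than at 24 hpf by -0.61 in the numbered libraries (exact permutation, adjusted p = 0.0434). In the DrRyu libraries the difference was 0.41 and was not called (exact permutation, adjusted p = 0.619). The median of *slc12a3* in the DrRyu libraries of 48 hpf was 0.145 CPM, again below the 1 CPM added. The fitted log2 changes of 48 over 24 hpf in this kind were -1.50 for *slc12a3* and -1.40 for *cdh17*. At 96 hpf the ratio averaged -3.53 ± 0.82, against -1.51 ± 0.58 at 24 hpf, and all 8 later libraries were below all earlier ones (difference -2.02, exact permutation, adjusted p = 0.000799, n = 8 each). The ratio of *nphs1* to *pax2a*, added likewise, was 0.97 higher at 96 hpf than at 24 hpf (exact permutation, adjusted p = 0.0277). The fit called neither gene over this span (edgeR adjusted p = 0.0932 for *nphs1* and 0.166 for *pax2a*). The ratio was not called for 24 hpf over 6 ss (0.41, exact permutation, adjusted p = 0.250). For 48 over 24 hpf it was not called in the numbered (-0.18, exact permutation, adjusted p = 0.652) or DrRyu libraries (-0.82, adjusted p = 0.0808).

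**Figure D3:**
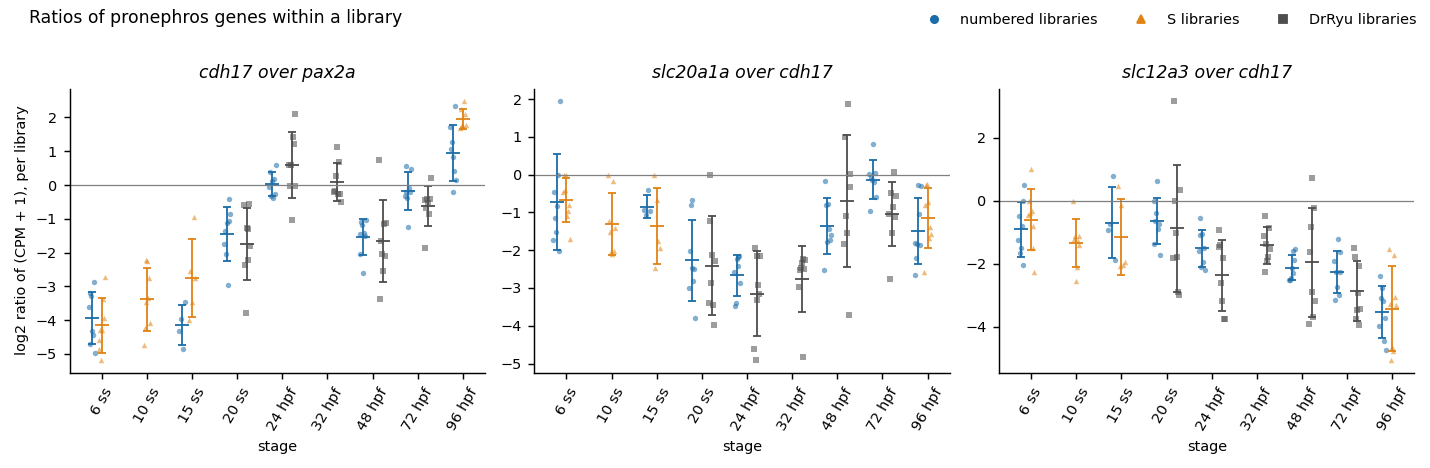
Log2 ratio of (CPM + 1) of *cdh17* over *pax2a*, *slc20a1a* over *cdh17*, and *slc12a3* over *cdh17* in each library (points) against stage, colored by library kind, with the mean and SD of each group as bars; 0 marks equal levels. *cdh17* over *pax2a* averaged 0.03 in the numbered libraries at 24 hpf, against -3.92 at 6 ss, and *slc12a3* over *cdh17* averaged -3.53 at 96 hpf.

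Counted over the 8 members tested, the calls are set beside those of the whole table. For 10 over 6 ss and 15 over 10 ss, in the S libraries, edgeR and DESeq2 called 0 members each, with 1 and 3 at an unadjusted p under 0.05, where 1.67% and 1.77% of all genes were called in either direction. Between 15 and 20 ss 2 members rose in the numbered libraries (*cdh17* and *slc12a3*), against 2.41% of all genes higher. Against the S libraries of 15 ss 0 members and 88 of 21638 genes were called. Between 20 ss and 24 hpf 2 members rose (*cdh17* and *slc20a1a*), against 17.3% of all genes. *pax2a* alone rose between 24 and 32 hpf (8.02% of all genes). Between 32 and 48 hpf 2 fell (*cdh17* and *slc12a3*, 11.8% of all genes lower). Between 48 and 72 hpf 3 changed (*cdh17* and *slc20a1a* rose and *pax2a* fell), against 19.7% of all genes in either direction, and between 72 and 96 hpf *cdh17* rose (2.38% of all genes higher).

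Over the longer spans, 3 of the 8 members rose from 6 ss to 24 hpf, against 21.1% of all genes higher. From 24 to 48 hpf 1 rose and 2 fell, against 17.8% higher and 18.6% lower. From 24 to 96 hpf *slc20a1a* rose, against 19.6% of all genes, and from 6 ss to 96 hpf, in the numbered libraries, 3 rose (*cdh17*, *slc20a1a*, and *slc12a3*, 32% of all genes) and 2 fell (*pax2a* and *slc12a1*, 22.6%). Of the 5 tubule members tested, 3 rose from 6 ss to 96 hpf, 1 fell, and 1 was not called, beside the 32% and 22.6% of all genes. Over that span *cdh17* rose 28.4-fold in the numbered libraries (95% interval 15.5 to 52.0, edgeR adjusted p = 7.24e-19) and 33.0-fold in the S libraries (18.0 to 60.8). *slc20a1a* rose 28.9-fold in the numbered libraries (95% interval 10.8 to 77.3, adjusted p = 3.27e-09) and 88.8-fold in the S libraries (30.1 to 262). At 6 ss *slc20a1a* had 8 counts in 2 numbered libraries and 4 counts in 3 S libraries (mean 0.141 CPM). The sizes of its folds are therefore uncertain. *pax2a* at 96 hpf was at 0.595 of its level at 6 ss in the numbered libraries (95% interval 0.444 to 0.799, adjusted p = 0.00197) and at 0.275 in the S libraries (0.201 to 0.376, adjusted p = 3.09e-12), and the difference between kinds missed the threshold (log2 1.11, numbered minus S, edgeR interaction, adjusted p = 0.0577).

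**Figure D4:**
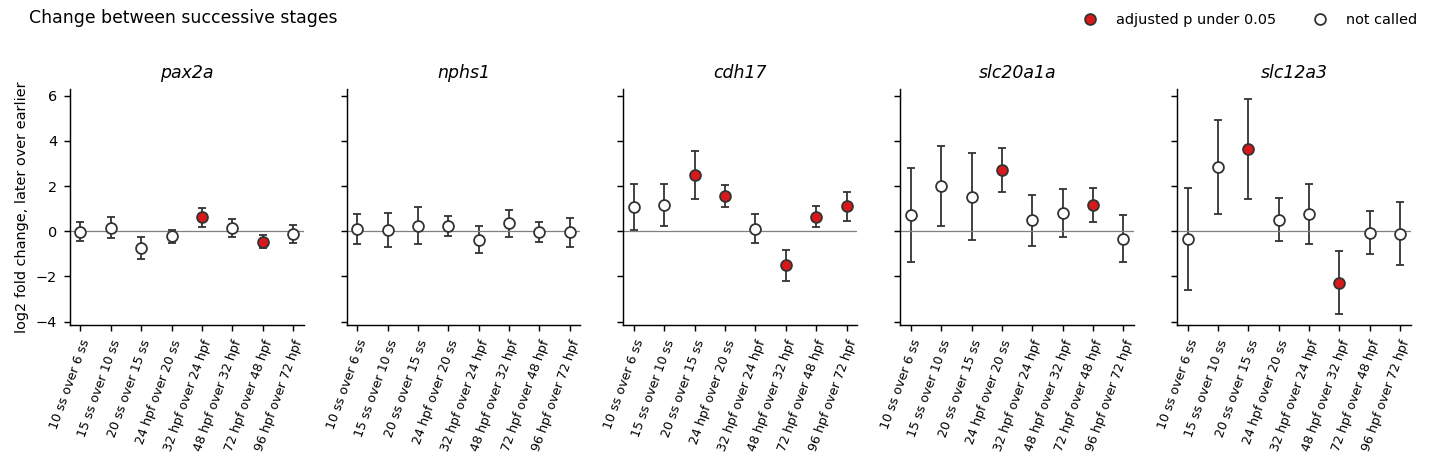
Log2 fold change of the later over the earlier stage (vertical axis) for 8 successive steps (horizontal axis) of the 5 genes with most counts, from 1 edgeR fit; bars are 95% intervals and filled points have an adjusted p under 0.05. *cdh17* has filled points on both sides of 0, with -1.51 for 48 over 32 hpf and 1.11 for 96 over 72 hpf, and *nphs1* has none.

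Other kidney genes, listed by role, were set beside the members. Of 30 tubule genes tested, 11 rose and 1 fell between 6 ss and 24 hpf, with a list median of 0.70 on the log2 scale, against 0.18 for all genes tested, of which 21.1% were higher and 11.2% lower. The named genes are the 3 with the largest called changes. *atp1a1a.4*, which encodes a Na,K-ATPase alpha subunit, averaged 47.2 ± 4.49 CPM at 24 hpf, against 1.48 ± 0.978 at 6 ss (log2 5.00, adjusted p = 9.89e-21, edgeR). *clcnk*, a chloride channel gene, averaged 3.38 ± 0.781 CPM, against 0.191 ± 0.540 (log2 3.92, adjusted p = 0.00508), and *amn* is given above.

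Between 24 and 48 hpf 4 tubule genes rose and 4 fell (list median -0.02), where 17.8% of all genes were higher and 18.6% lower, with a median of 0.0024. *slc26a1*, an anion exchanger gene, was at 2.09 ± 0.791 CPM in the numbered libraries of 48 hpf, against 7.07 ± 1.35 CPM at 24 hpf (log2 -2.13 over both kinds, adjusted p = 2.47e-08). The calls of *slc13a1*, a sulfate transporter gene, and *slc9a3.1*, a sodium-proton exchanger gene, rest on few counts. *slc13a1* had 5 and 20 counts in the numbered and DrRyu libraries of 48 hpf, against 0 in both kinds at 24 hpf. *slc9a3.1* had 18 and 0 counts at 48 hpf, against 34 and 18 at 24 hpf. Between 24 and 96 hpf 14 tubule genes rose and 0 fell, with a median of 0.94, against 0 for all genes tested, of which 19.6% were higher and 20.3% lower. *slc5a1*, a sodium-glucose cotransporter gene also used in the intestine, had 140 counts in the numbered libraries of 96 hpf, against 1 count at 24 hpf, *slc13a1* had 76, against 0, and *slc5a2* had 22, against 2.

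Of 15 regulator genes tested, 2 rose and 6 fell between 6 ss and 24 hpf (median -0.66), beside the 21.1% higher and 11.2% lower of all genes. The POU factor genes *pou3f3b* and *pou3f3a*, which the brain also expresses, averaged 56.3 ± 5.55 and 31.8 ± 3.92 CPM at 24 hpf, against 3.05 ± 1.43 and 1.79 ± 1.43 CPM at 6 ss. *gata3* averaged 18.4 ± 3.23 CPM, against 112.7 ± 13.2 CPM at 6 ss (log2 -2.61, adjusted p = 1.38e-26, edgeR). Between 24 and 48 hpf 7 regulators rose and 1 fell (median 0.49), beside the 17.8% higher and 18.6% lower of all genes. *lhx1a*, a LIM factor gene of the intermediate mesoderm and of neurons, averaged 16.0 ± 4.98 CPM at 48 hpf, against 1.75 ± 0.558 CPM at 24 hpf in the numbered libraries (log2 2.91 over both kinds, adjusted p = 1e-15). *osr1* rose by 1.37 (adjusted p = 2.54e-05), and the call of *wt1b* rests on 6 and 8 counts in the numbered and DrRyu libraries of 48 hpf, against 2 and 0 at 24 hpf. Between 24 and 96 hpf 4 regulators rose and 2 fell (median 0.52), with *lhx1a* at 2.4, *osr1* at 1.72, and *pou3f3b* at -1.30. Of all genes, 19.6% were higher and 20.3% lower over this span.

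Of 12 podocyte genes tested, 1 fell and 0 rose between 6 ss and 24 hpf (*kirrel1b*, log2 -1.18, adjusted p = 0.0163, edgeR). Of all genes, 21.1% were higher and 11.2% lower. Between 24 and 48 hpf 4 rose and 1 fell (median 0.28), beside 17.8% of all genes higher and 18.6% lower. *kirrel1b*, a slit diaphragm gene, rose by 1.07 (adjusted p = 0.00206), whereas *plce1*, a phospholipase gene, had 22 and 44 counts in the numbered and DrRyu libraries of 48 hpf, against 12 and 0 at 24 hpf. Between 24 and 96 hpf 1 rose and 1 fell (median 0.18), beside 19.6% of all genes higher and 20.3% lower. *cd2ap*, an adaptor of the slit diaphragm, fell by 0.59 on the log2 scale (adjusted p = 0.0102).

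**Figure D5:**
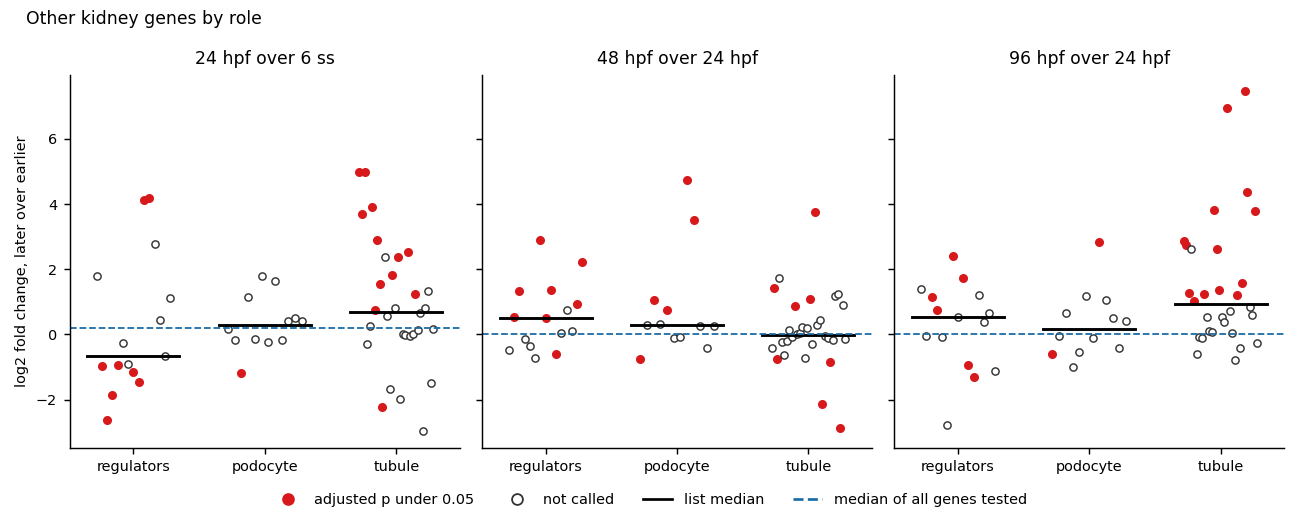
Log2 fold change (vertical axis) of the other kidney genes tested, 15 regulators, 12 podocyte genes, and 30 tubule genes, for 24 hpf over 6 ss, 48 over 24 hpf, and 96 over 24 hpf; filled points have an adjusted p under 0.05, black lines are list medians, and the dashed line is the median of all genes tested. The tubule list has its highest median, 0.94, in 96 over 24 hpf, where 14 of its genes rose.

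Whole-embryo levels also hold other tissues that use these genes, and their markers moved over the same stages. For *pax2a* those looked at were the midbrain-hindbrain boundary, the inner ear, and the thyroid, which need not be all. Of 5 midbrain-hindbrain markers tested 3 fell and 0 rose between 24 and 48 hpf, when *pax2a* rose, and 4 fell between 24 and 96 hpf. Of all genes, 18.6% and 20.3% were lower over these spans. The one with most counts, *en2b*, averaged 17.7 CPM in the numbered libraries of 48 hpf, against 34.4 CPM at 24 hpf. Of 6 inner ear genes tested 1 rose and 2 fell between 24 and 48 hpf (median -0.15), beside 17.8% of all genes higher and 18.6% lower. The one with the most counts, *stm*, rose by 0.33 on the log2 scale over both kinds (edgeR adjusted p = 0.0181), with 34.5 CPM at 48 hpf, against 38.9 CPM at 24 hpf in the numbered libraries, and 49.1 CPM, against 27.3 CPM in the DrRyu libraries. The thyroid list was led by *nkx2.4b* (1037 counts), which the hypothalamus also expresses. *tg* followed with 748 counts, and *tshr* (43 counts) and *slc5a5* (56 counts) were near 0. Of 3 thyroid genes tested 0 rose and 0 fell between 24 and 48 hpf (median 0.80), beside 17.8% of all genes higher and 18.6% lower. Between 24 and 96 hpf 1 rose and 1 fell (median 1.55), beside 19.6% higher and 20.3% lower. For the chloride cotransporters the skin ionocytes matter. Of their 8 markers 3 rose and 3 fell between 24 and 48 hpf, when *slc12a3* fell, beside 17.8% of all genes higher and 18.6% lower, and their own cotransporter gene *slc12a10.2* averaged 13.1 CPM at 96 hpf, against 2.89 CPM at 24 hpf in the numbered libraries. Of 8 intestinal markers 6 rose and 1 fell between 24 and 96 hpf, the span in which tubule genes rose, beside 19.6% of all genes higher and 20.3% lower. The median of this list was 4.41 on the log2 scale, against 0 for all genes tested. Its gene with most counts, *apoa4b.1*, differed from that median, with 756.8 CPM at 96 hpf, against 793.9 CPM at 24 hpf in the numbered libraries. Between 72 and 96 hpf, when *cdh17* rose, 4 intestinal markers rose and 0 fell (median 2.10), beside 2.38% of all genes higher and 2.58% lower. For *wt1a* the epicardial list was led by *aldh1a2* (22592 counts), with *tcf21* at 3761 and *tbx18* at 232 counts. Of these 3 genes 0 rose and 0 fell between 24 and 48 hpf or between 24 and 96 hpf. Of all genes, 36.4% and 39.9% were called in either direction over these spans. The part of these tissues in the levels of the members was not tested.

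Where the numbered and DrRyu libraries covered the same step, the kinds were compared directly. The interaction of step and kind was called for 0 of the 8 members at 48 over 24 hpf (0 at an unadjusted p under 0.05, and 0 by DESeq2) and for 0 at 72 over 48 hpf (1 at an unadjusted p under 0.05, *pax2a*, and 0 by DESeq2), where 4.58% and 2.04% of all genes were called. For 24 hpf over 20 ss it was called for *wt1a* only, against 5.03% of all genes, on the 13 counts of 1 library. Such tests do not show that the kinds act alike: the 95% interval of the interaction of *slc20a1a* ran from -0.21 to 2.81 at 72 over 48 hpf.

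S and numbered libraries shared 6 ss, 15 ss, and 96 hpf. At 6 ss edgeR and DESeq2 called 0 members (0 at an unadjusted p under 0.05), against 0.536% of all genes. At 15 ss, a comparison added after seeing the data, edgeR called 0 members (2 at an unadjusted p under 0.05, *cdh17* and *slc12a1*, and 1 called by DESeq2), against 0.846% of all genes. *cdh17* averaged 4.98 ± 3.49 CPM in the 5 S libraries of 15 ss and 1.27 ± 1.02 CPM in the 4 numbered ones, with 4 of the 5 S libraries above all numbered ones (log2 1.86, 95% interval 0.71 to 3.01, edgeR adjusted p = 0.135). At 96 hpf *pax2a* was the only member called, against 0.744% of all genes lower in S. The S libraries held 6.26, 7.97, and 11.6 CPM of *pax2a* (lowest, median, and highest), and the numbered libraries held 11.1, 19.0, and 23.9 CPM, so that 7 of 8 S libraries were below all numbered ones. The log2 difference of S over numbered was -1.07 (SE 0.24, edgeR adjusted p = 0.00321). The used number was 1 for these S libraries and 5 for the numbered ones, and the part of it in the difference was not tested. *cdh17* at 96 hpf showed a log2 difference of -0.07 between the kinds (95% interval -0.72 to 0.58), and *slc20a1a* of 0.38 (95% interval -0.67 to 1.44). The change from 6 ss to 96 hpf differed between the kinds for 0 of the 8 members (edgeR interaction, 2 at an unadjusted p under 0.05 and 1 called by DESeq2), against 0.795% of all genes.

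The genes whose means over the 16 groups followed each member most closely were listed by Pearson's r of mean log2(CPM + 1), as a description over group means that share stages and library kinds. For *cdh17* they were *atp1a1a.4* (r = 0.974), *dhdhl* (0.973), and *oxct1b* (0.97). The first of these is itself a tubule gene of the list above. For *slc20a1a* they were *atp6v1d* (0.983), *nlgn3a* (0.980), and *actc1c* (0.980), for *slc12a3* they were *arrb2b* (0.907), *zgc:64022* (0.900), and *dap3* (0.899), and for *cubn* they were *wfs1a* (0.944), *zbtb20* (0.929), and *alkal2b* (0.928). For *pax2a* they were *znf839* (0.947), *chd4a* (0.928), and *rbfox2* (0.912). For *nphs1* they were *si:dkey-121n8.7* (0.977), *mapk8a* (0.971), and *chst15* (0.971). Over the 5 DrRyu means alone the r of these named genes ran from 0.512 (*chd4a* with *pax2a*) to 0.989 (*actc1c* with *slc20a1a*). Over the 7 numbered means it ran from 0.887 to 0.986. The genes named for *cubn* had 265 to 583 counts in all. Among the members themselves the highest r was 0.813, of *slc20a1a* and *cdh17*, followed by 0.774, of *slc12a3* and *cdh17*, and *pax2a* and *cdh17* had an r of -0.716. The genes closest to *wt1a* and *slc12a1* had at most 69 counts each and are not named.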

How the data were processed

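Whole-embryo RNA was sequenced by a 3′ method (Lasy-Seq). Per the labels and methods, the authors trimmed reads with fastp 0.21.0, aligned them with BWA-MEM 0.7.17-r1188 to Ensembl cDNA of GRCz11, and quantified them with Salmon. The deposited values are estimated counts per gene symbol, not normalized, and 2 values that were not whole were rounded. Groups are stage by library kind from the titles and descriptions, 16 in all, and no 2 libraries were identical.

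The quasi-likelihood model of edgeR 4.0.16 (R 4.3.3), with TMM factors and 16 group means, was fitted to every gene with 1 count or more in a minimum of 8 libraries. SEs of fitted changes were derived from the log2 change and its F statistic, and their 95% intervals from these SEs by a normal approximation. On simulated counts for 48 over 24 hpf (21632 genes), it called 100% of genes changed 4-fold, 66% of those changed 2-fold, and 22% of those changed 1.5-fold, with 9 of 21432 unchanged genes called. The simulation gave all genes 1 common spread and no difference between kinds, and it changed only genes with a mean above 1 CPM. These rates do not carry over to members with fewer counts or a wider spread, such as *cubn*. Ratios of gene pairs used a pseudocount of 1 CPM and exact permutation tests (scipy 1.17.1). Alternatives were DESeq2 1.42.0, other filters, scalings, models, and subsets of libraries.

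The members and the lists of other genes were chosen with earlier results of these data known. Of the other kidney lists, up to 3 of the called genes with the largest fold change per list and contrast were named. Of other-tissue lists the gene with most counts was named, and for each member the 3 genes of highest r. A result of the podocyte list is not reported here. *synpo* and 5 other list symbols were not among the symbols of the table. Gene overlaps were looked up in a RefSeq table of the GRCz12tu assembly, from which no coordinates were taken, and sequences were not used here.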

Additional observations from a re-analysis of the deposited data

Results flagged for a closer look

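Over 73 groups of 4 to 10 libraries with members' values, Dixon's test set 3 libraries apart, and chance flags about 1 in 20 groups. *pax2a* in numbered library 2 of 24 hpf was at 4.28 on the log2(CPM + 1) scale (18.5 CPM), against 22.9 to 26.8 CPM in the other 7. *cdh17* in numbered library 5 of 72 hpf was at 3.37 (9.36 CPM), against 15.3 to 22.6 CPM in the others. *slc20a1a* in DrRyu library 6 of 32 hpf was at 0.0, with 0 counts of 5640471, against 2.14 to 4.62 CPM in the others.

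The step from 20 ss to 24 hpf differed between the kinds for *wt1a*, by 5.89 on the log2 scale (numbered minus DrRyu, edgeR interaction, adjusted p = 0.0376). It rests on 4 counts in 1 numbered library of 24 hpf and 13 counts in DrRyu library 2 of 20 ss, with 0 counts in the numbered libraries of 20 ss and in the DrRyu libraries of 24 hpf. The fitted value is no measure of size, and without DrRyu library 2 the difference was not called.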

How the results depend on the processing

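For 23 called results of *pax2a*, *cdh17*, *slc20a1a*, and *slc12a3*, 236 of 257 alternative values kept direction and call, 21 kept direction only, and 0 changed direction. The calls of *slc12a1* and *wt1a*, which rest on few counts, are not in this tally, nor are results called only under an alternative. Of these results, 13 were called under every alternative run. The cause of the changes below was not tested, except that subsets hold fewer libraries.

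Members called changed as follows. For 20 over 15 ss the additive model of stage and kind called 4 members and 1074 of 21638 genes, against 2 and 896. Leaving out 1 library of 15 ss gave 1 to 2 members and 636 to 681 genes. With the S libraries of 15 ss as the earlier group, chosen after seeing the data, 0 members and 88 of 21638 genes were called. For S over numbered at 15 ss DESeq2 called 1 member and 341 of 21638 genes, against 0 and 183. For 15 over 10 ss leaving out 1 library gave 0 members throughout, with 283 to 367 of all genes called. For 32 over 24 hpf DESeq2, no filter, RLE, library totals, the additive model, and the DrRyu libraries alone each called 0, against 1. DESeq2, RLE, library totals, and the additive model called 2081 to 2694 of 21638 genes. No filter called 2722 of 24338 genes, and the DrRyu libraries alone 506 of 18497. The DrRyu libraries alone called 1 for 48 over 32 hpf, 0 for 72 over 48 hpf, and 1 for 48 over 24 hpf, and 2 across their stages. Of 18497 genes they called 1498, 1156, 2831, and 7363, in that order. The additive model called 2 for 96 over 72 hpf and 0 for S over numbered at 96 hpf, where *pax2a* had a log2 difference of -0.36. Of 21638 genes this model called 2205 and 357. For 96 over 24 hpf, DESeq2, RLE, and the additive model called 3, library totals 2, and the numbered libraries alone 5. DESeq2, RLE, the additive model, and library totals called 8603, 8931, 9938, and 8660 of 21638 genes. The numbered libraries alone called 10510 of 20304 genes, and the main fit called 1 member and 8630 of 21638 genes. The interaction of 96 over 6 ss was called for 1 member by DESeq2 and with library totals, and for 368 and 226 of 21638 genes. That of 24 hpf over 20 ss was called for 0 by DESeq2, filterByExpr, and without DrRyu library 2 of 20 ss, a setting chosen after seeing the data. These settings called 870 of 21638, 789 of 17152, and 1073 of 21632 genes.

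Scaling moved the median of all genes by over 0.1 in 15 of 45 combinations of contrast and setting, from -0.23 to 0.45. For 96 over 24 hpf, 49.1% of calls were higher with TMM and 66.7% with RLE.

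With the replicate number as a block, all 23 results kept their call, and the *wt1a* interaction was called for 0 members. Same-numbered libraries did not deviate together (r of -0.093 to 0.10 over 8264 genes). Correlations near 0 cannot show whether they share more than a number, such as a clutch.

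For the gene pairs, *slc20a1a* over *cdh17* missed the threshold with a pseudocount of 0.1 for 24 hpf over 6 ss (-0.98, exact permutation, adjusted p = 0.555) and of 10 for 96 over 24 hpf (0.33, adjusted p = 0.205). The ratio of *slc12a3* to *cdh17* for 48 over 24 hpf in the numbered libraries, added after seeing the data, was -0.61 and turned to 0.082 with a pseudocount of 10.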
